A study of Mus musculus with 6 samples.

Results

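The genes described here are those of the BCL2 family, which sets whether a cell lives or enters apoptosis, in a murine myeloma line under 3 culture conditions. They are a fixed set of 10 genes, taken as the survival genes Mcl1, Bcl2 and Bcl2l1, the effector genes Bax and Bak1, and the BH3-only death genes Bbc3, Bcl2l11, Pmaip1, Bid and Bad. A gene was measured where the platform annotation named a probe set (the group of probes that reports a transcript) with that gene alone, and the brightest such probe set over the 6 arrays was used. This gave 9 of the 10 genes, of 22180 genes in all; Bax was not analysed here because none of the probe sets used was named for it.

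DP42 cells, a line of the plasma cell cancer multiple myeloma, were grown for 24 h with mouse neutrophils, with mouse B cells, or alone, and RNA of 2 samples per culture was hybridised to Affymetrix arrays. The neutrophil partner is labelled "neutrophils (IMC)", and co-cultured cells were flow sorted before RNA extraction; the design text names the B-cell co-culture the control. The labels give no treatment or genetic change in any group, and all cells are of the one line. Nor do they say whether the arrays of a condition come from separate cultures; the p-values below reflect the scatter between arrays, which could be purely technical.

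Proteins of the family meet at the outer mitochondrial membrane. The guardians MCL1, BCL2 and BCL-XL (the product of Bcl2l1) hold the effectors BAX and BAK inactive and bind BH3-only proteins, which are made or activated under stress; once freed, the effectors open pores in the membrane and cytochrome c released through them starts the caspases. Survival of plasma cells and of most myeloma cells leans heavily on MCL1, a protein with a short life.

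The sequences upstream of 3 transcript starts are shown. Bbc3 and Bcl2l11 were the members whose neutrophil arrays both lay above both B-cell arrays, and Mcl1 was the guardian with the largest difference there. Such a position was common, held by 30% of all genes and 52.1% of those with at least median brightness. Each is the 250 bases before the start (RefSeq, GRCm38.p6, plus strand, chr7:16309333-16309582 for Bbc3, chr2:128125788-128126037 for Bcl2l11 and chr3:95658471-95658720 for Mcl1). Where several starts of a gene had a promoter sequence, the most upstream of those is given. For Bbc3 and Mcl1 the RefSeq gene begins further upstream, at chr7:16308398 and chr3:95656944. Capitals mark GC boxes (GGGCGG on either strand), the motif bound by SP1-type factors.
Bbc3: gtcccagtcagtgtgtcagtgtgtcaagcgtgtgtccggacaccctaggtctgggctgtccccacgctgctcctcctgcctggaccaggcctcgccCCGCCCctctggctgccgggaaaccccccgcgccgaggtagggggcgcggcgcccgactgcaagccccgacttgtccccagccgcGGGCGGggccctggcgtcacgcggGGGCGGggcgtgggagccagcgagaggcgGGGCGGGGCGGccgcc
Bcl2l11: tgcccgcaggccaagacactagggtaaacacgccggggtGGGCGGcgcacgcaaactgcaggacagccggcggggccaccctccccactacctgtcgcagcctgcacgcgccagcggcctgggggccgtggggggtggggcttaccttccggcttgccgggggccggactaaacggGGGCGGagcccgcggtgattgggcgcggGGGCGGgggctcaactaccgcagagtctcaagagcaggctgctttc
Mcl1: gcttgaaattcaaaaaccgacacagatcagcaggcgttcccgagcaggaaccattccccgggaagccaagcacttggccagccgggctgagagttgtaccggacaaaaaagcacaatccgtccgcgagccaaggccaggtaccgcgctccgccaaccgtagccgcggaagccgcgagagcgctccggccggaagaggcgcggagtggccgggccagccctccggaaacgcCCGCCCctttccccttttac
The RefSeq table held 15 promoters of 9 of the 10 genes, Pmaip1 apart, and 10 of the 15 held a GC box in this window, against 32.74% of all 32851 promoters. Those were of Bad, Bax, Bbc3, Bcl2, Bcl2l11, Bid and Mcl1. Starts of the same gene were counted separately and some Bbc3 windows overlap, so the 15 are not independent. The windows printed were rich in G and C, at 76.4% for Bbc3, 72.0% for Bcl2l11 and 64.4% for Mcl1, against a median of 52.4% over all promoters. The STAT site TTCNNNGAA (either strand) was in 0 of the 15 windows and in 7.02% of all promoters, and the cAMP response element TGACGTCA in 0 of the 15 and in 1.55%. The E-box CACGTG was in 2 of the 15, of Bax and of a further Bbc3 start, and in 6.02% of all promoters. These are matches of letters only.

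The 2 B-cell arrays stood apart from each other: across genes, which are not independent, they correlated at r = 0.992, against 0.997 between the neutrophil arrays and 0.997 between the arrays of culture alone. B-cell replicate 1 was closer to neutrophil replicate 1, at r = 0.996.

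No member passed the test in any comparison. Over all genes, limma's moderated test with Benjamini-Hochberg adjustment called 0 of 9 members for neutrophils against B cells, where 0.0496% of genes were called. It called 0 of 9 for neutrophils against culture alone, where 1.49% of genes were called, and 0 of 9 for B cells against culture alone, where 0% were called (869 genes at an unadjusted p under 0.05). In both comparisons with neutrophils Bbc3 alone had an unadjusted p under 0.05, as had 20.1% and 17.7% of genes; in the third no member had, against 3.92% of genes. The 95% intervals of the 27 differences, each for its gene alone, reached from 0.76-fold to 1.48-fold. All 9 members lay above the lower quartile of every array, between the 54.6th and the 96.8th percentile of gene brightness, so none was measured among the dimmest signals.

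**Figure D1:**
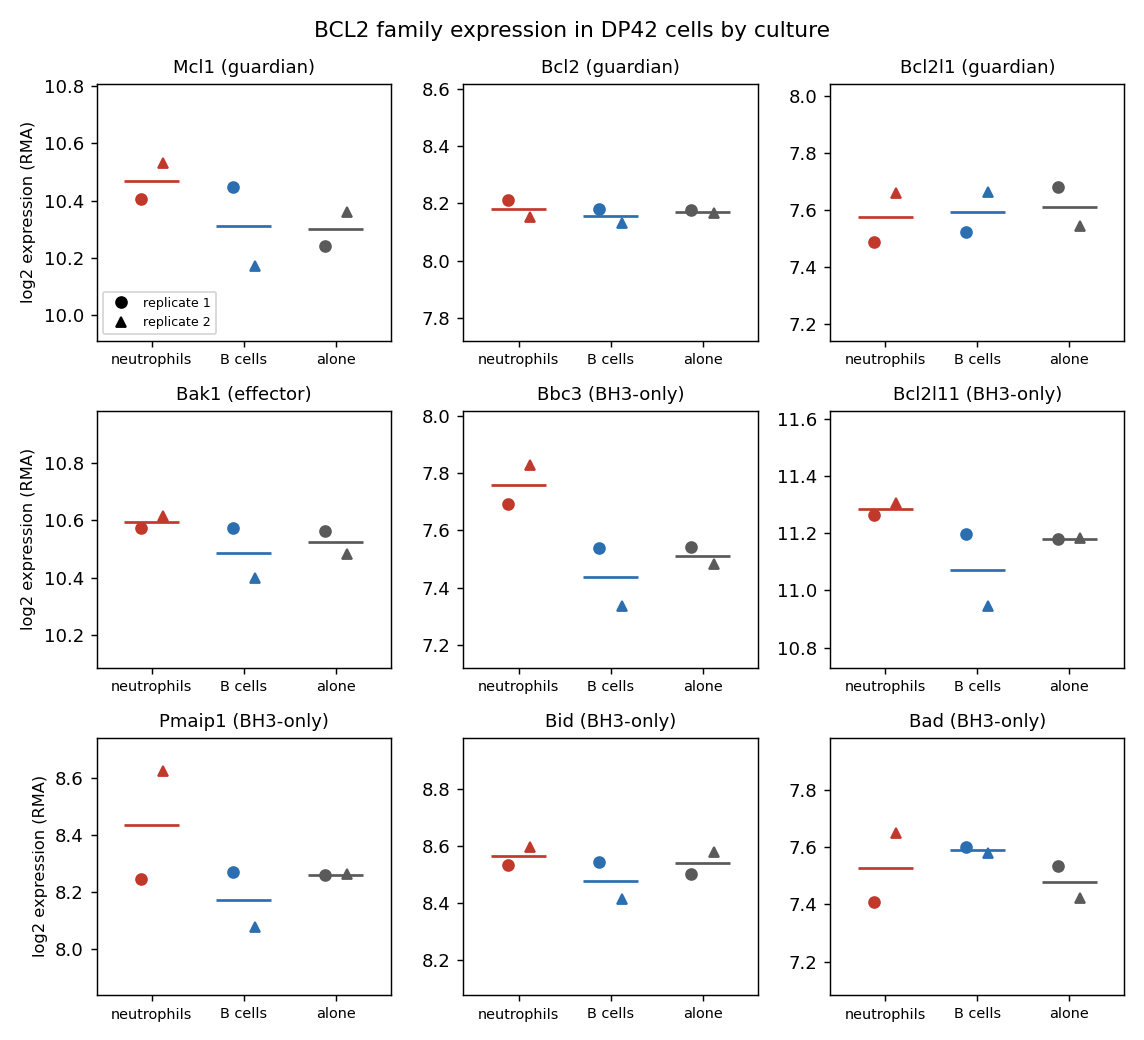
RMA log2 expression of 9 BCL2 family genes in DP42 cells grown with neutrophils, with B cells or alone; circles are replicate 1, triangles replicate 2, bars the mean of 2 arrays, and every panel spans 0.9 log2 units. Bbc3 is the gene whose neutrophil arrays stand clearest above the rest, and B-cell replicate 2 is the lowest array for 7 of the 9 genes.

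Among the guardians, Mcl1 (probe set 17400418) stood at 10.41 and 10.53 with neutrophils, at 10.45 and 10.17 with B cells and at 10.24 and 10.36 in cells grown alone (log2, replicates 1 and 2). Its B-cell arrays lay farther apart than the neutrophil mean lay from the B-cell mean, and its neutrophil arrays overlapped the B-cell range but not that of culture alone. The difference was 0.16 ± 0.12 (SE) for neutrophils against B cells (1.12-fold, 95% interval 0.93 to 1.35, adjusted p = 0.414). Against culture alone it was 0.17 ± 0.12 (1.12-fold, interval 0.93 to 1.35, adjusted p = 0.459). B cells against alone gave 0.01 ± 0.12. The value against B cells rested on the B-cell arrays, at 0.022 without replicate 2 and 0.30 without replicate 1, and quantile normalisation gave 0.048. The means were ordered neutrophils, B cells, alone, with no neighbours differing beyond their spread.

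A dimmer probe set of Mcl1 (17407826) did not show that order. It stood at 6.67 and 6.68 with neutrophils, 6.84 and 6.76 with B cells and 6.54 and 6.59 alone, so that here both B-cell arrays were above both neutrophil arrays. Neutrophils minus B cells gave -0.12 ± 0.09, neutrophils minus culture alone 0.11 ± 0.09 and B cells minus culture alone 0.24 ± 0.09, none called (limma over all single-gene probe sets). With the mean of both probe sets the first difference was 0.02, so the direction seen for Mcl1 against B cells rests on the choice of probe set. The dimmer probe set, at a mean of 6.68, was below the median of every array. Against B cells, genes dimmer than the median gene had a median difference of -0.12 and those with at least median brightness 0.13. Each Mcl1 probe set was thus near the usual value at its brightness. Against culture alone the difference was positive for both probe sets, and 0.14 with their mean.

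Bcl2 (17226043), the founding survival gene of the family, was the steadiest member, with a range of 0.08 over the 6 arrays. It stood at 8.21 and 8.15 with neutrophils, 8.18 and 8.13 with B cells and 8.18 and 8.17 alone, and all groups overlapped. The interval for neutrophils against B cells was 0.88 to 1.17-fold (difference 0.03 ± 0.09, adjusted p = 0.863). Its dimmer probe set (17216395), at a mean of 6.46, gave a difference of -0.09 ± 0.09 against B cells. Genes dimmer than the median gene had a median of -0.12 there.

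Bcl2l1 (17392991), the gene of BCL-XL, stood at 7.49 and 7.66 with neutrophils, 7.52 and 7.66 with B cells and 7.68 and 7.54 alone. The groups overlapped in every comparison, and the means were ordered alone, B cells, neutrophils, opposite to Mcl1. The difference was -0.02 ± 0.11 against B cells (0.99-fold, interval 0.83 to 1.17, adjusted p = 0.925) and -0.04 ± 0.11 against culture alone (0.98-fold, interval 0.82 to 1.16, adjusted p = 0.866).

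Among the BH3-only genes, Bbc3 (17474097) had the largest difference of any member. It encodes PUMA, which is induced by p53 and other stress factors and binds all the guardians. It stood at 7.69 and 7.83 with neutrophils, 7.54 and 7.33 with B cells and 7.54 and 7.48 alone, and both neutrophil arrays were above all 4 others. The difference was 0.32 ± 0.11 against B cells (1.25-fold, interval 1.05 to 1.48, unadjusted p = 0.0160, adjusted p = 0.193 by limma). Against culture alone it was 0.25 ± 0.11 (1.19-fold, interval 1.00 to 1.41, adjusted p = 0.278 by limma). A difference at least as high against B cells was found in 5.6% of the genes with at least median brightness, and against culture alone in 9.8%.

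Bcl2l11 (17375961), the gene of BIM, which kills lymphocytes deprived of cytokines, stood at 11.26 and 11.30 with neutrophils, 11.20 and 10.95 with B cells and 11.18 and 11.18 alone. Both neutrophil arrays were above all 4 others, by a small margin over B-cell replicate 1. The difference was 0.21 ± 0.11 against B cells (1.16-fold, interval 0.98 to 1.37, adjusted p = 0.287) and 0.10 ± 0.11 against culture alone (1.07-fold, interval 0.91 to 1.27, adjusted p = 0.605).

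Pmaip1 (17351414) encodes NOXA, which binds MCL1 and speeds its breakdown. It stood at 8.25 and 8.62 with neutrophils, 8.27 and 8.08 with B cells and 8.26 and 8.26 alone. Its high mean with neutrophils came from replicate 2, while replicate 1 was below both alone arrays, and the groups overlapped. The difference was 0.26 ± 0.14 against B cells (1.20-fold, interval 0.97 to 1.48, adjusted p = 0.293) and 0.17 ± 0.14 against culture alone (adjusted p = 0.499). Without neutrophil replicate 2 these were 0.07 and -0.02.

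Bid (17470457), which links death receptors to mitochondria after cleavage by caspase-8, stood at 8.54 and 8.60 with neutrophils, 8.55 and 8.41 with B cells and 8.50 and 8.58 alone. Bad (17356974), whose product is held inactive by survival kinases, stood at 7.41 and 7.65 with neutrophils, 7.60 and 7.58 with B cells and 7.54 and 7.42 alone. For both genes the neutrophil arrays overlapped those of each other culture. The difference against B cells was 0.09 ± 0.10 for Bid (adjusted p = 0.578) and -0.06 ± 0.11 for Bad (adjusted p = 0.725). Bad was the one member whose B-cell arrays both lay above both alone arrays, at a difference of 0.11 ± 0.11 (adjusted p = 1.00), where 13.5% of all genes and 10.7% of the genes brighter than the median gene lay so.

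The effector Bak1 (17342676) stood at 10.57 and 10.62 with neutrophils, 10.57 and 10.40 with B cells and 10.56 and 10.48 alone. Its neutrophil arrays lay above both alone arrays, by a small margin, and overlapped the B-cell arrays. The difference was 0.11 ± 0.10 against B cells (1.08-fold, interval 0.92 to 1.26, adjusted p = 0.505) and 0.07 ± 0.10 against culture alone (1.05-fold, interval 0.90 to 1.23, adjusted p = 0.703). Leaving out B-cell replicate 2 gave 0.019 against B cells and leaving out replicate 1 gave 0.20, while quantile normalisation gave 0.0067.

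**Figure D2:**
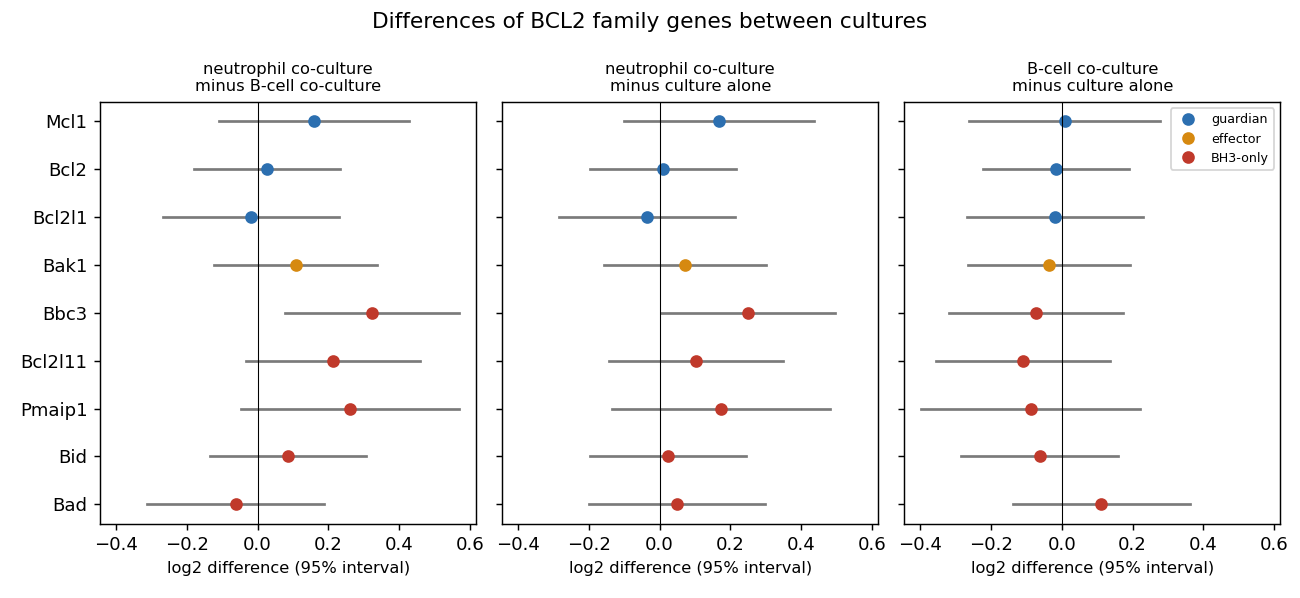
Log2 differences of 9 BCL2 family genes in 3 comparisons, with 95% intervals from limma not adjusted for the number of genes; points are coloured by role. The interval of Bbc3 lies above 0 in both comparisons with neutrophils, and every other interval spans 0.

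Counted together, the members had positive differences with neutrophils about as often as other bright genes. Against B cells 7 of 9 differences were positive, at a median of 0.11. Of all genes 51.7% were positive there, at a median of 0.01, and of the 11091 brighter genes (those with a mean signal at or above the median gene) 80.1%, at a median of 0.13. Against culture alone 8 of 9 were positive, at a median of 0.07, beside 54.4% of all genes at a median of 0.02 and 79.7% of the brighter ones at 0.11. Both comparisons share the neutrophil arrays, so they do not check each other. Both neutrophil arrays were above both B-cell arrays for 2 of 9 members, against 30% of all genes and 52.1% of the brighter ones, and above both alone arrays for 4 of 9, against 35.6% and 60.1%. Between B cells and culture alone 2 of 9 were positive, at a median of -0.04, beside 49.5% of all genes and 44% of the brighter ones, which lay at a median of -0.01.

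**Figure D3:**
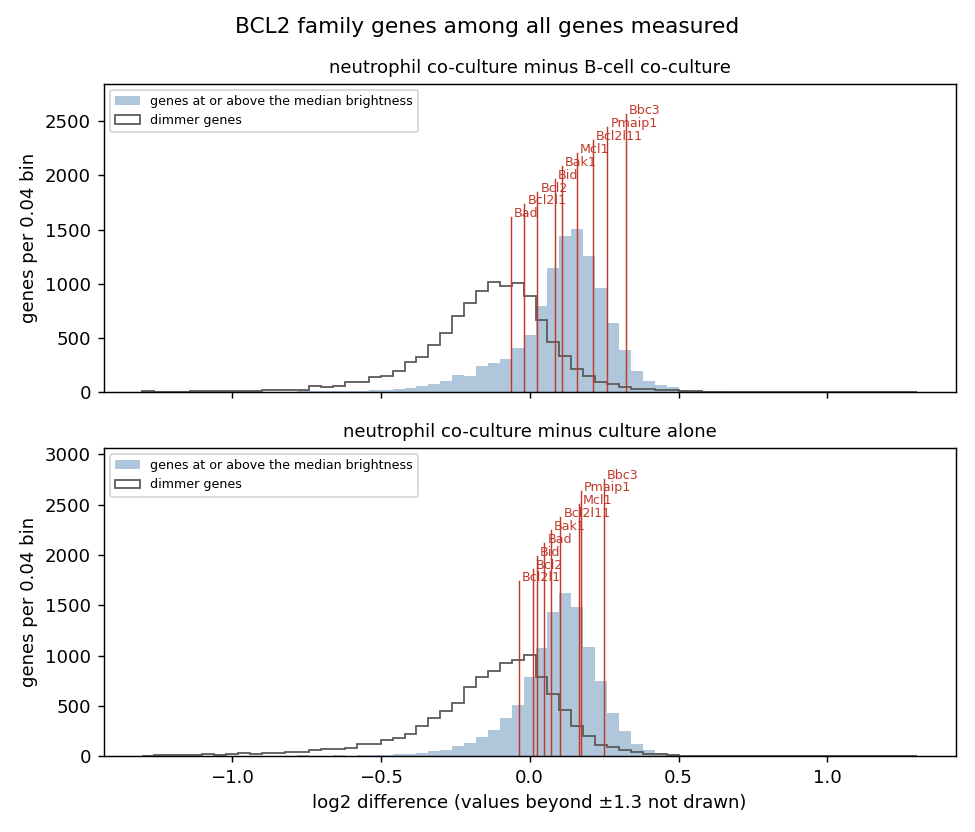
Histograms of log2 differences for genes with at least median brightness (filled) and dimmer genes (outline), with red lines at the 9 BCL2 family genes, labelled by name at staggered heights that carry no value. Brighter genes centre at 0.13 above and 0.11 below, and the members spread over that range, Bbc3 at 0.32 and 0.25 being the highest of them.

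By role, the BH3-only genes had a median difference of 0.21 against B cells over 5 genes and the guardians 0.03 over 3. Against culture alone the medians were 0.10 and 0.01. With each gene set to its mean in cells grown alone, the BH3-only mean was 0.03 and 0.21 with neutrophils and 0.04 and -0.12 with B cells. The guardian mean was 0.01 and 0.09 with neutrophils and 0.02 and -0.04 with B cells. Neutrophil replicate 1 therefore stood beside B-cell replicate 1 in both classes, and the classes spread most in neutrophil replicate 2 and B-cell replicate 2. Whether the classes differ was not tested.

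Single arrays weighed on these values. B-cell replicate 2 was the lowest of the 6 arrays for 7 of 9 members, as it was for 31.8% of all genes and 56.6% of the brighter ones. Neutrophil replicate 2 was the highest for 7 of 9 members, against 26.5% and 42.1%. Without B-cell replicate 1, Bbc3 at 0.42 (adjusted p = 0.0328) and Bcl2l11 at 0.34 (adjusted p = 0.0369) were higher against B cells in limma, 2 of 9 members, when 24.6% of all genes were called and 11.7% were called higher. Without B-cell replicate 2 these were 0.22 (adjusted p = 0.557) and 0.09 (adjusted p = 0.761). For Pmaip1 the difference was 0.36 without B-cell replicate 1 and 0.16 without replicate 2, and for Bid 0.15 and 0.020.

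The mean of 1394 olfactory and vomeronasal receptor genes, which plasma cells are not known to use, also moved with the arrays. It stood at 5.13 and 5.05 with neutrophils, 5.27 and 5.59 with B cells and 5.56 and 5.51 alone, lowest in the neutrophil arrays and lower in B-cell replicate 1 than in B-cell replicate 2. With this mean as a covariate Bbc3 stood at 0.09 against B cells (adjusted p = 1.00) and -0.05 against culture alone (adjusted p = 0.978), and of the 7 members positive against B cells Bbc3 alone stayed so. The median difference against B cells over all genes was -0.01 with the covariate and 0.01 without it, and how many genes changed sign was not counted. Because the receptor mean was lowest in both neutrophil arrays, the covariate overlaps with the culture, and the fit cannot cleanly tell them apart. The part of the receptor mean in the differences was not tested.

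**Figure D4:**
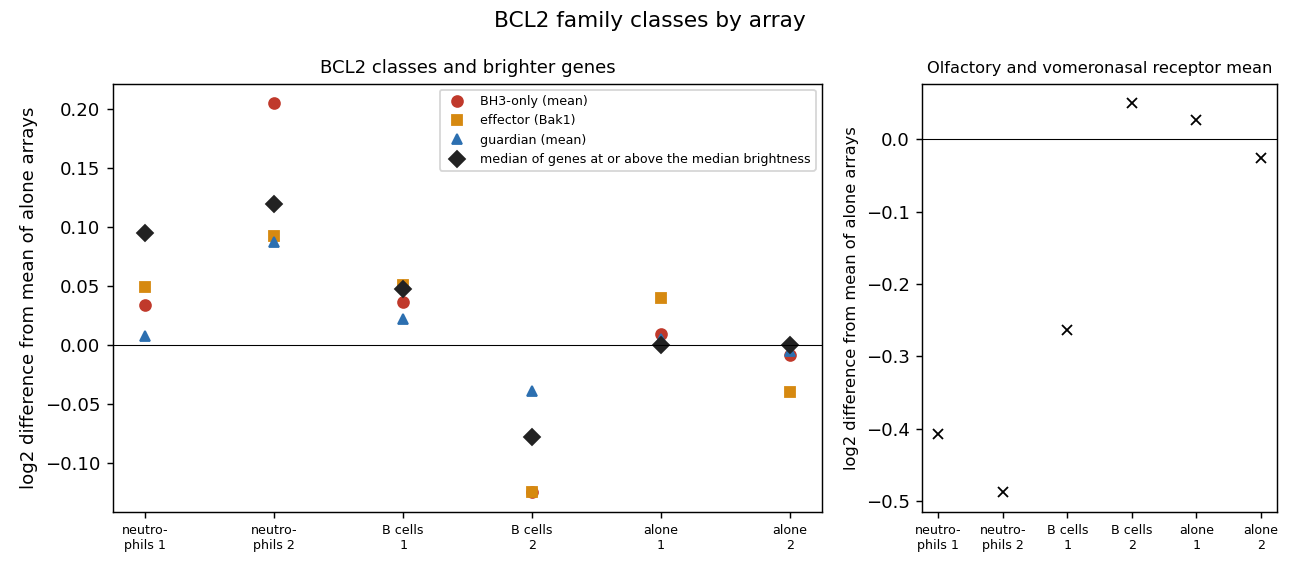
Left, per array, the mean log2 difference from cells grown alone for 5 BH3-only genes and 3 guardians, the value of Bak1, and the median of genes with at least median brightness. Right, the same for the mean of 1394 receptor genes; the receptor mean is lowest in the neutrophil arrays, where the brighter genes are highest, and near 0 in B-cell replicate 2.

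Marker genes of other cells were read beside these values, since RNA of the partner cells would add its own transcripts. Of the array checks for the B lineage and plasma cells, Pax5 ran from 10.94 to 11.08, Irf4 from 10.68 to 10.98 and Sdc1 from 8.38 to 8.67. Not every plasma cell gene was that bright. Of the 9 plasma cell markers measured 3 were dimmer than the median gene. These were Prdm1, which ran from 6.70 to 6.97, Tnfrsf17, below the lower quartile on 5 arrays, and Jchain, below it on all 6. Of 20 neutrophil markers 1 was called higher with neutrophils than with B cells and 5 than in culture alone, with list means of 7.16 and 7.21 with neutrophils, 6.79 and 6.88 with B cells and 6.76 and 6.82 alone. The log2 of their summed signal was 12.12 and 12.16 with neutrophils, 11.89 and 11.95 with B cells and 11.91 and 11.92 alone. The granule gene Ngp stood at 7.27 and 7.70 with neutrophils against 5.93 and 6.11 with B cells. Ly6g and Ctsg were below the lower quartile of all 6 arrays, though Ly6g stood at 5.98 and 5.76 with neutrophils against 5.30 and 5.39 with B cells. At an unadjusted p under 0.05 in limma, 8 of the 20 neutrophil markers were higher and 0 lower with neutrophils than with B cells. Against culture alone 9 were higher and 0 lower. Of all genes 20.1% and 17.7% had such a p in these comparisons, in either direction. The list means of the 12 mature B cell markers measured were 9.98 and 9.99 with neutrophils, 9.97 and 10.01 with B cells and 10.03 and 9.98 alone, with 0 called and 1 higher and 1 lower at an unadjusted p under 0.05 against B cells. Cells grown alone already held many of these transcripts, such as Ighm at 13.35 and 13.30 and Cd79b at 12.48 and 12.52. Only 3 of the 12 were dimmer than the median gene. Level list means therefore cannot show whether B-cell RNA was carried. Of 9 plasma cell, 9 T and NK cell and 9 monocyte and macrophage markers, 0, 0 and 1 were called with neutrophils against B cells, the last being Ly6c2. Their list means ran from 9.30 to 9.39, from 6.74 to 6.94 and from 7.09 to 7.28 over the 6 arrays. Neutrophils also hold BCL2 family transcripts, and the part of carried RNA in the members' values was not tested. In such bulk RNA, fewer cells of a type and less RNA per cell cannot be told apart.

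The rest of the apoptosis machinery was read through 8 lists, and 0 of their 77 genes were called in any of the 3 comparisons. At an unadjusted p under 0.05, 14 stood higher and 1 lower with neutrophils than with B cells, 6 higher and 1 lower than in culture alone, and 1 lower with B cells than in culture alone. These were 19.5%, 9.1% and 1.3% of the list genes, none above the 20.1%, 17.7% and 3.92% of all genes. The 4 further guardian genes measured all had negative differences with neutrophils against B cells, at a median of -0.18. Of these genes 3 were dimmer than the median gene, and Bcl2l10, named here after its values were seen, was below the lower quartile on all 6 arrays. Among the dimmer genes as a whole 23.3% of differences against B cells were positive, at a median of -0.12, so a negative difference was the usual one at that brightness. Bcl2a1a, an NF-kB target that protects activated lymphocytes and myeloid cells, was at 6.79 and 6.45 with neutrophils against 7.05 and 7.32 with B cells and 7.01 and 7.30 alone (difference -0.57 ± 0.15 against B cells, adjusted p = 0.154, and -0.54 ± 0.15 against alone, adjusted p = 0.139). Both neutrophil arrays lay below all 4 others. Below both B-cell arrays they lay for 5928 of all 22180 genes and for 4751 of the 11089 dimmer ones, Bcl2a1a among them by brightness. Bcl2a1c stood at -0.24 ± 0.18 against B cells; the Bcl2a1 genes are near-identical copies, so their signals may be shared. The 8 further BH3-only and effector-like genes had a median of 0.06 against B cells, with Bcl2l14 at 0.24 ± 0.10 and the mitophagy receptor gene Bcl2l13 at 0.18 ± 0.10 (adjusted p = 0.230 and 0.323).

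Downstream of the family, 9 of 9 apoptosome and caspase genes were positive against B cells at a median of 0.18. Casp6, an executioner caspase, stood at 0.27 ± 0.16 and Diablo, whose product SMAC blocks the inhibitors of apoptosis, at 0.26 ± 0.13 (adjusted p = 0.345 and 0.287). All 7 genes of inhibitors of apoptosis were positive too, at a median of 0.15. Naip2, a sensor of bacterial proteins, stood at 8.41 and 8.37 with neutrophils against 8.07 and 7.68 with B cells (0.52 ± 0.15, adjusted p = 0.166), and Birc5, which encodes survivin, at 0.32 ± 0.13 (adjusted p = 0.241). The brighter genes as a whole lay at 0.13, with 80.1% of them positive.

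In the death receptor pathway 10 of 13 genes were positive against B cells, at a median of 0.17. Of the brighter genes as a whole 80.1% were positive there, and of the dimmer ones 23.3%. Daxx, a nuclear adaptor and histone chaperone, was highest at 0.37 ± 0.12 (adjusted p = 0.182), and Ripk3, the kinase of necroptosis, stood at 0.30 ± 0.11 (adjusted p = 0.220). Of the family's mitochondrial partners 9 of 10 were positive, at a median of 0.12, with the adenine nucleotide carrier Slc25a4 at 0.38 ± 0.12 and Vdac2, a channel that holds BAK at the membrane, at 0.22 ± 0.09 (adjusted p = 0.175 and 0.248). Slc25a4 differed less from culture alone, at 0.10 ± 0.12, and B-cell replicate 2 was its lowest array at 9.19, against 9.57 and 9.67 alone.

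Upstream of the members, 12 of 15 transcription factors and partners were positive against B cells, at a median of 0.13, beside 80.1% of the brighter genes. Foxo3, which drives Bcl2l11 and Bbc3, stood at 8.48 and 8.56 with neutrophils, 8.29 and 8.15 with B cells and 8.43 and 8.43 alone (0.30 ± 0.10 against B cells, adjusted p = 0.188; 0.09 ± 0.10 against alone, adjusted p = 0.612). E2f1 stood at 0.28 ± 0.13 against B cells (adjusted p = 0.257). Of 11 genes for turnover of the MCL1, BIM and NOXA proteins 10 were positive, at a median of 0.08. Dusp1, a phosphatase that switches off stress kinases, was at 8.21 and 8.26 with neutrophils, 7.97 and 7.82 with B cells and 7.85 and 7.83 alone, with both neutrophil arrays above all others (0.34 ± 0.10 against B cells, adjusted p = 0.165; 0.39 ± 0.10 against alone, adjusted p = 0.0931). Mapk8, the kinase JNK1, stood at 0.23 ± 0.15 (adjusted p = 0.372).

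**Figure D5:**
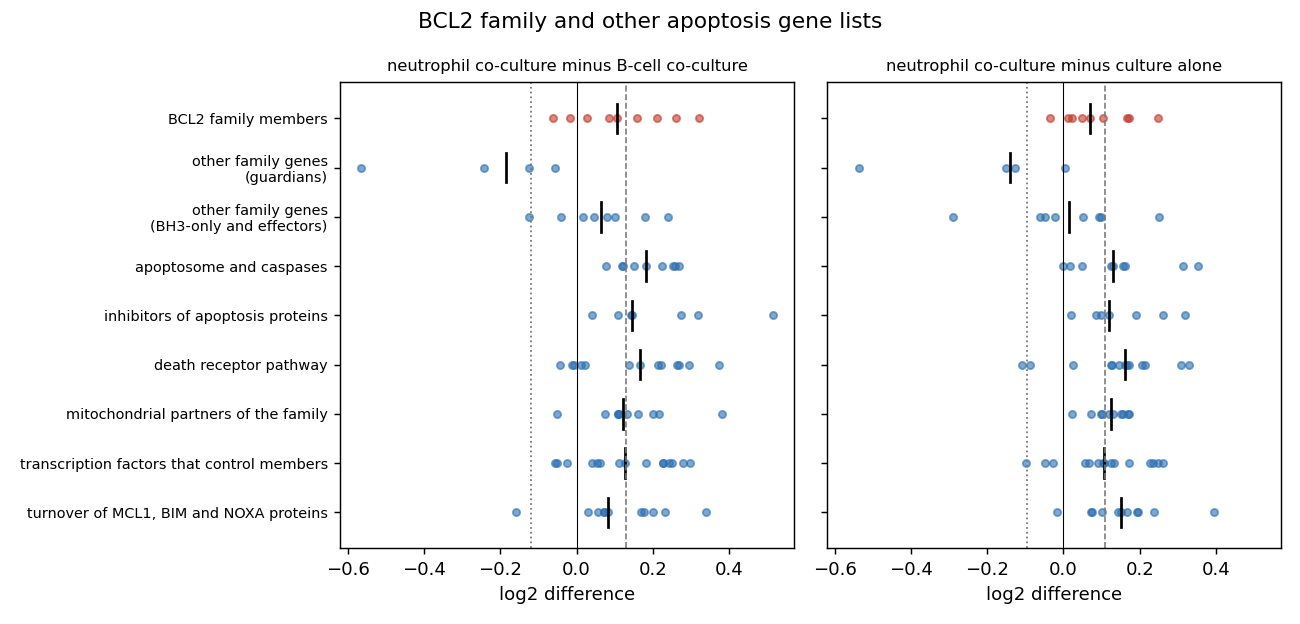
Log2 differences of single genes (points) with list medians (black bars) for the 9 BCL2 family genes, in red, and 8 other apoptosis lists, in blue; the dashed line is the median of genes with at least median brightness and the dotted line that of dimmer genes. Against B cells 7 of the 8 lists have medians from 0.06 to 0.18, around the dashed line at 0.13; 3 of the 4 further guardian genes are dimmer than the median gene, for which the dotted line at -0.12 is the median.

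Over the 6 arrays Mcl1, Bbc3, Bcl2l11, Pmaip1, Bak1 and Bid followed each other, while Bcl2l1 and Bad did not follow them and Bcl2 lay between. Pearson correlations, as descriptions over arrays that share the same shifts, ran among those 6 from 0.72 for Bak1 with Bid to 0.92 for Bak1 with Bcl2l11, against -0.41 for Mcl1 with Bcl2l1 and 0.16 for Mcl1 with Bad. Among the 11091 brighter genes, leaving out predicted ones, those most like Mcl1 were Ddx23 and Nabp1 (r = 0.997 and 0.996), those most like Bbc3 were Zmiz1 and Elovl5 (0.997 and 0.996), and those most like Bcl2l11 were Qtrt2 and Cbx1 (0.998 and 0.998). Such patterns were common, with r over 0.9 for 1185 genes with Mcl1, 1871 with Bbc3 and 2188 with Bcl2l11. For Bcl2l1 only 8 genes passed that level, led by Ackr2 and Mir216b (0.960 and 0.948).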

How the data were processed

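Per the submitters' processing notes, the authors made the deposited log2 values with RMA, which subtracts background, normalises between arrays and summarises probes per probe set; values ran from 3.04 to 14.03 and the log2 scale was read from them. The array model, software version and any further centring are not given in the sources used here. A change common to nearly all genes cannot be seen after such normalisation, small changes of dim genes are compressed, and the number of arrays limits precision. Of 41345 probe sets, 23521 were named with 1 gene, 1814 with several and 16010 were unnamed here.

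The brightest single-gene probe set per gene was fitted with limma 3.58.1 (R 4.3.3) on all 6 arrays as group means, with 3 residual degrees of freedom, eBayes and Benjamini-Hochberg adjustment over 22180 genes, at an adjusted p threshold of 0.05. The procedure was tested on simulated data with independent noise for each gene and array. No shift shared by the genes of an array was simulated, so that test does not cover such shifts. Plots used matplotlib 3.10.9 in Python 3.11.15.

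The members, 8 apoptosis lists and 5 marker lists were chosen with earlier results of these data known. Named genes were the members, from each apoptosis list any called gene and the 2 with the largest difference between neutrophils and B cells, the 2 most correlated genes for 4 members, and array checks. Alternatives were a brightness filter, quantile normalisation, eBayes with its trend and robust options, median centring, averaged probe sets, 4-array fits, the replicate number as a block, the receptor mean as a covariate and leaving out each array. Replicate numbers did not pair the arrays: the deviations correlated at -0.151, 0.065 and -0.074 between groups.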

Additional observations from a re-analysis of the deposited data

How the results depend on the processing

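No member was called in any comparison under any alternative, except 2 members without B-cell replicate 1 for neutrophils against B cells (range 0 to 2 over arrays left out), when the single B-cell array left was assumed to vary like the other groups. The replicate block changed no call of a member (Bbc3 against B cells 0.32, adjusted p = 0.211) and gave 9, 373 and 0 genes over all genes for neutrophils against B cells, neutrophils against culture alone and B cells against culture alone. With the numbers of the B-cell arrays exchanged, chosen after seeing the data because their deviations ran against those of the neutrophil arrays, these became 299, 742 and 0. For neutrophils against B cells the 11 genes (7 higher, 4 lower) became 91 among brighter genes, 33 with trend and robust settings, 7 with quantile normalisation, 62 with median centring (18 higher, 44 lower), 1 with 4 arrays, 0 with the receptor mean (777 at an unadjusted p under 0.05) and 1 to 5453 with an array left out. For neutrophils against culture alone the 331 became 90, 353, 70, 555, 1338, 0 (1254 at an unadjusted p under 0.05) and 5 to 1338 in the same order. For B cells against culture alone 1 gene was called among brighter genes and 1 with trend and robust settings. The causes were not tested.

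Differences that changed sign were uncalled, and why they changed was not tested. With the receptor mean as a covariate, neutrophils minus B cells gave -0.16 for Mcl1, -0.0084 for Bcl2, 0.10 for Bcl2l1, -0.050 for Bcl2l11, -0.029 for Pmaip1, -0.065 for Bak1 and -0.073 for Bid. Under the same covariate neutrophils minus culture alone gave -0.26 for Mcl1, -0.035 for Bcl2, 0.12 for Bcl2l1, -0.052 for Bbc3, -0.24 for Bcl2l11, -0.21 for Pmaip1, -0.16 for Bak1, -0.19 for Bid and -0.033 for Bad, and B cells minus culture alone gave -0.094 for Mcl1 and 0.019 for Bcl2l1. Median centring gave 0.049 for Bcl2l1 and 0.0044 for Bad against B cells, 0.0025 for Bcl2l1 against culture alone, and -0.020 for Mcl1 between B cells and culture alone. Quantile normalisation gave 0.040 for Bcl2l1 against B cells and 0.0057 for Bcl2l1, -0.0066 for Bak1 and -0.016 for Bid against culture alone. Some values kept their sign but moved by over 1.5 times: quantile normalisation gave 0.12 for Bcl2l11 and 0.026 for Bid against B cells, and 0.082 for Mcl1 and 0.040 for Bcl2l11 against culture alone, and median centring gave 0.17 for Bak1 and 0.15 for Bid against B cells. Averaging the probe sets of a gene gave -0.031, -0.019 and 0.012 for Bcl2 in the 3 comparisons. With single arrays left out, neutrophils minus B cells ran from -0.0027 to 0.055 for Bcl2, -0.10 to 0.068 for Bcl2l1 and -0.18 to 0.058 for Bad. Neutrophils minus culture alone ran from -0.018 to 0.039 for Bcl2, -0.12 to 0.050 for Bcl2l1, -0.015 to 0.36 for Pmaip1, -0.015 to 0.062 for Bid and -0.070 to 0.17 for Bad. B cells minus culture alone ran from -0.13 to 0.14 for Mcl1, -0.089 to 0.052 for Bcl2l1, -0.041 to 0.010 for Bcl2, -0.18 to 0.029 for Bbc3, -0.23 to 0.017 for Bcl2l11, -0.18 to 0.0095 for Pmaip1, -0.12 to 0.051 for Bak1 and -0.13 to 0.0033 for Bid.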
